A study of Mus musculus with 8 samples.

Results

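Endothelin and nitric oxide (NO) signaling genes were examined in whole fetal mouse lungs after tracheal occlusion (TO). The 8 genes were the endothelin ligands Edn1 and Edn3, the converting enzyme Ece1, the endothelin receptor Ednra, the NO synthase Nos3, the guanylate cyclase subunits Gucy1a1 and Gucy1b1, and the phosphodiesterase Pde5a, out of 55385 gene IDs in the count files. They were taken by symbol as a set of vascular tone genes, except that Ednra was chosen by its measured level, which had been seen to be lower in TO lungs of this same series. Its difference between the groups is therefore given as a description, without a test.

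Bulk RNA of 4 control and 4 TO lungs was sequenced. All came from C57BL/6 fetuses collected at E18.5. In TO fetuses a suture placed through the uterine wall with a needle had tied off the trachea earlier in gestation, together with a carotid artery and a jugular vein, and the dams received progesterone. How control fetuses were handled is not given in the sources used here. Libraries carry the replicate numbers of the labels (control 1 to 4, TO 1 to 4), and the labels do not say which of them shared a litter, so p-values measure the spread between these lungs and nothing wider. The specimens that the study analyzed correspond to controls 1, 2, 4 and TO 2, 3, 4, whose 6 libraries are given first. Control 3 and TO 1 were added in an analysis of all 8.

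Endothelins are peptides cut from larger precursors by endothelin converting enzyme. Endothelin-1 acts on the ETA receptor of vascular smooth muscle to constrict vessels, whereas the ETB receptor of endothelial cells releases NO and clears the peptide. NO made by the endothelial synthase diffuses into smooth muscle and binds soluble guanylate cyclase, a heterodimer of an alpha and a beta subunit that makes cGMP, and cGMP relaxes the vessel until phosphodiesterase 5 degrades it. Both arms set the tone of the fetal pulmonary circulation, and drugs that block endothelin receptors or phosphodiesterase 5 are given in pulmonary hypertension, including that of infants with congenital diaphragmatic hernia, the condition for which TO is used.

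The genes that the results turn on lie on several chromosomes of GRCm38. Edn1 (ENSMUSG00000021367.8) lies on chromosome 13 from 42301476 to 42307990 and Edn3 (ENSMUSG00000027524.9) on chromosome 2 from 174760619 to 174784042, both on the plus strand. Ednra (ENSMUSG00000031616.7) lies on chromosome 8 from 77663031 to 77724464 on the minus strand. Gucy1a1 (ENSMUSG00000033910.13, 82092427 to 82145789) and Gucy1b1 (ENSMUSG00000028005.13, 82032006 to 82074689) are neighbors on the minus strand of chromosome 3, and Pde5a (ENSMUSG00000053965.10, 122728947 to 122859374) lies farther along the same chromosome. Ece1 (ENSMUSG00000057530.14) lies on chromosome 4 from 137862237 to 137965229, and Nos3 (ENSMUSG00000028978.12) on chromosome 5 from 24364810 to 24384474.

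Promoter windows of RefSeq (GRCm38.p6), with 250 bases before and 50 after an annotated start, were found for 7 of the 8 genes, 11 windows in all. Those of the ligand pair and of the cyclase subunit pair are shown because the levels of the genes of each pair were compared across libraries, as described further on. Bases in capitals match a motif that was searched on both strands, and all are written 5′ to 3′ in the direction of the gene.
Edn1 (chr13:42301226-42301525, plus strand): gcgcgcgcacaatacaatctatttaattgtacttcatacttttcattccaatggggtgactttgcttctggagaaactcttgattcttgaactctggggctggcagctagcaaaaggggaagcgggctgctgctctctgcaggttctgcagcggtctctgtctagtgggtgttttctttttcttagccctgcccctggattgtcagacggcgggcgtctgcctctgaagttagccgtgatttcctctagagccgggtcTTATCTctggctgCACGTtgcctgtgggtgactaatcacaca
Edn3 (chr2:174760369-174760668, plus strand): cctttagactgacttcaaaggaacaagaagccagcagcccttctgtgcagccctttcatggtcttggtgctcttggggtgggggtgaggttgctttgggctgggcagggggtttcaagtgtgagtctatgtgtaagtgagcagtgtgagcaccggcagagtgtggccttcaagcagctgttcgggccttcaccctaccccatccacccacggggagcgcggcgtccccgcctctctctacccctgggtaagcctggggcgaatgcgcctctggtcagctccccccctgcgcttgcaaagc
Gucy1a1 (chr3:82145024-82145323, minus strand): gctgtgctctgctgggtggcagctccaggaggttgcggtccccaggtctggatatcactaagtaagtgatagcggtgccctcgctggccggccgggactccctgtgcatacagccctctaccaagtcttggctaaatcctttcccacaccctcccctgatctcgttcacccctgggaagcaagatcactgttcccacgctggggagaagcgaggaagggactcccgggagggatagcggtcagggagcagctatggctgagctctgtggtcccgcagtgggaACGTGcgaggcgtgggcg
Gucy1b1 (chr3:82074662-82074961, minus strand): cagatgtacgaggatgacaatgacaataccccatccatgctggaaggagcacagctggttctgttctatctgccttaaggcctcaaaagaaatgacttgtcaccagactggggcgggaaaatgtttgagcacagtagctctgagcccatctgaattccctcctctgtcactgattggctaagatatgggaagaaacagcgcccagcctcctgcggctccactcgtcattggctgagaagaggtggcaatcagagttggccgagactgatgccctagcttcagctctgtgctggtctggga

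The Edn1 window held the GATA motif AGATAA, read on the opposite strand, at bases 259 to 264 of the window, and the hypoxia response core ACGTG, also on the opposite strand, at bases 272 to 276. The printed Gucy1a1 window held ACGTG at bases 283 to 287, and the second window of that gene (chr3:82145601-82145900) held none of the motifs searched. No motif was matched in the Edn3 and Gucy1b1 windows shown, or in that of Ednra (chr8:77724403-77724702) or Pde5a. Of the 4 windows of Ece1 only the third held ACGTG, at overlapping bases of both strands. Among all 32851 windows 19.6% held ACGTG, 11.2% AGATAA, 13.6% the TATA box TATAAA, 7.8% the AP-1 motif TGANTCA and 1.6% the CArG box. These matches describe letters in a window and were not tested for binding.

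Lung identity and depth were checked before the levels were compared. Sftpc, the surfactant protein of alveolar type 2 cells, was between 4431 and 12792 CPM (read counts scaled to library size), and Cdh5, the cadherin of endothelial junctions, between 356 and 634 CPM. No endothelial, pericyte, fibroblast or epithelial marker was at 0 in any library. TO 1 was shallow, with 270078 read pairs on genes against 22822261 to 35002061 elsewhere, and held from 2 read pairs of Edn1 to 60 of Pde5a. Markers of cardiomyocytes, which can enter a sample of whole lung with the heart or the pulmonary veins, summed to 585 and 421 CPM in controls 1 and 2, to 3382 and 4103 CPM in controls 4 and 3, and to 2013 to 5526 CPM in TO lungs. All 7 were higher in TO in the 6 libraries, with a median log2 fold change of 1.21, and none was called in this edgeR fit. Their part in the results that follow was not tested.

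**Figure D1:**
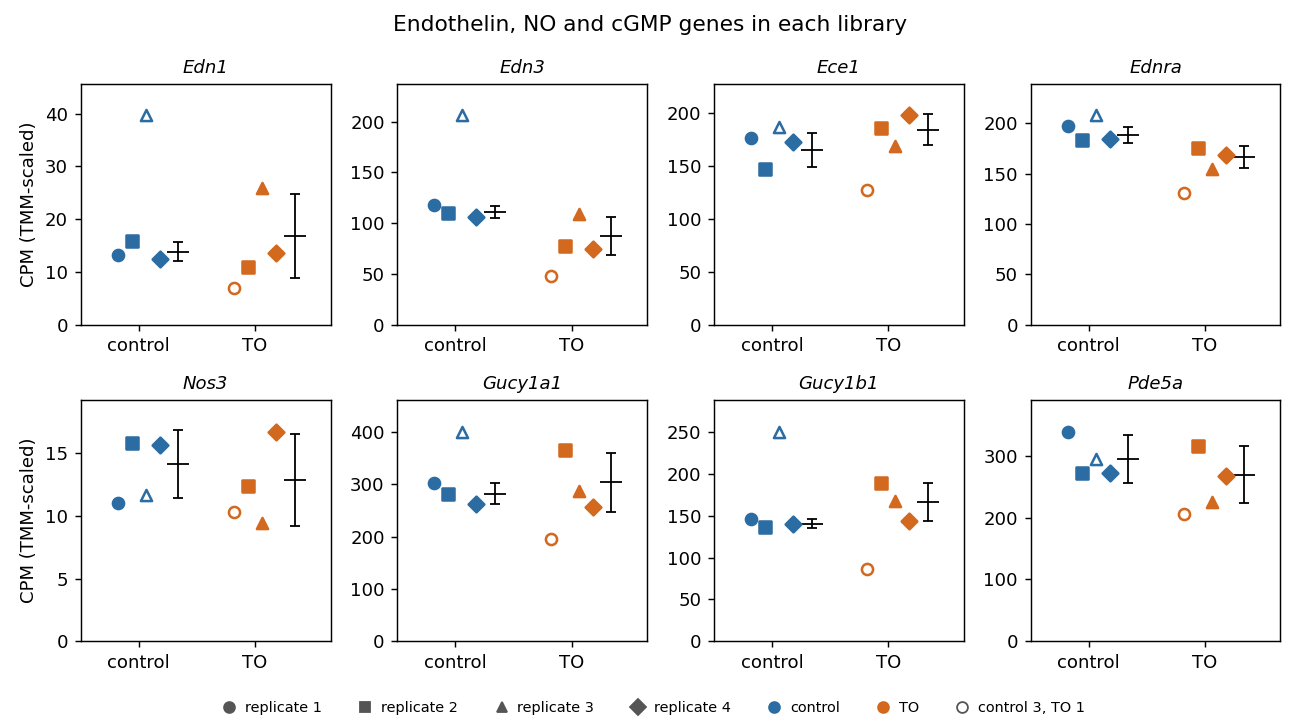
Level of each of the 8 genes in each library, in CPM (read counts scaled to library size, with TMM factors), with controls in blue and TO lungs in orange. Open symbols are control 3 and TO 1, and the black line and bar give the mean and SD of the 3 filled libraries. Ednra is lower in every TO lung than in every control, and control 3 stands above the other controls for Edn1, Edn3, Gucy1a1 and Gucy1b1.

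Per kilobase of exon the guanylate cyclase subunits were the most abundant of the 8 genes. Nos3 was the least abundant as counted without strand, but with both single-strand columns summed it was at 9.28 CPM per kb and Edn1 at 9.14. The summed value of Nos3 may hold read pairs of genes on the opposite strand. Over the 7 libraries other than TO 1, the level was 44.2 ± 7.79 CPM per kb for Gucy1a1 and 42.7 ± 10.5 CPM per kb for Gucy1b1 (SD, n = 7), close enough that neither stood above the other beyond its spread. Ece1 (33.3 ± 3.09 CPM per kb), Ednra (33.2 ± 3.27), Pde5a (28.9 ± 3.79) and Edn3 (27.9 ± 10.7) followed, each within 1 SD of its neighbor except Pde5a, whose distance from Ednra was slightly larger. Edn1 was lower, at 8.79 ± 4.90 CPM per kb, and Nos3 was at 3.20 ± 0.677 CPM per kb as counted. Ednrb, which encodes the ETB receptor and is not among the 8 genes, was above all of them at 51.7 ± 14.1 CPM per kb. Without control 3 the order was the same, with 42.0 ± 5.64 CPM per kb for Gucy1a1, 39.1 ± 5.16 for Gucy1b1, 24.1 ± 4.42 for Edn3 and 7.16 ± 2.54 for Edn1 (SD, n = 6).

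Edn1 was the most variable of the 8 genes between lungs, and the ETA receptor and the converting enzyme were the least as counted without strand, with or without control 3. The place of Edn3 rested on control 3. Over the same 7 libraries the coefficient of variation of CPM was 55.7% for Edn1, 38.2% for Edn3, 24.5% for Gucy1b1, 21.1% for Nos3, 17.6% for Gucy1a1, 13.1% for Pde5a, 9.86% for Ednra and 9.29% for Ece1. The median of 10766 genes with a mean of at least 10 CPM was 14.8%. The value for Edn1 was above that of 98.2% of those genes and the value for Edn3 above that of 94.1%, whereas Ednra was above 21.5% and Ece1 above 18.2%. Without control 3 the coefficient of variation was 35.4% for Edn1, 21.9% for Nos3, 18.3% for Edn3, 14.3% for Pde5a, 13.4% for Gucy1a1, 13.2% for Gucy1b1, 9.88% for Ece1 and 8.38% for Ednra, against a median of 12.4% over 10805 genes. Edn3 was then above 75.7% of those genes. With the single-strand columns summed Nos3 was at 9.81%, next to Ece1. Values without control 3 were added after the data had been seen.

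For the comparison of TO with control lungs, all 8 genes passed the filter on low counts. None of the 7 genes other than Ednra passed the adjusted p threshold of 0.1 in edgeR's quasi-likelihood test, with 6 libraries or with all 8. The background was the same, as 0 of 21859 genes (0%) were called in the 6 libraries and 0 of 22545 (0%) in all 8. At an unadjusted p under 0.05, 671 genes (3.07%) were higher and 452 (2.07%) lower in TO in the 6 libraries, and DESeq2 called 44 genes (0.201%), none of them among the 7. In the 6 libraries 4 of the 7 genes were above 0 on the log2 scale and 3 below, with a median of 0.10 against -0.0045 for all genes, of which 50.7% were below 0. In all 8 libraries 1 was above and 6 were below, with a median of -0.15 against -0.018, and 53.2% of all genes were below 0.

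Ednra encodes the ETA receptor. Its level was 197, 183, 208 and 184 CPM in controls 1 to 4 and 131, 176, 154 and 168 CPM in TO 1 to 4, so every TO lung was below every control lung, with TO 1 the lowest, from 38 read pairs. The mean was 188 ± 7.91 CPM in control and 166 ± 10.9 CPM in TO lungs (SD, n = 3), or 88.2% of control, and 81.4% of control with all 8 libraries. The log2 difference between the groups was -0.18 (standard error of the fit, SE, 0.10) in the 6 libraries, -0.22 without TO 1 and -0.28 (SE 0.13) in all 8. All TO lungs were below all controls for 5.81% of all genes in the 6 libraries and for 1.30% in all 8. For a gene chosen because it was lower nothing is read from these shares. In bulk RNA, fewer cells of the type that expresses a gene and less RNA of it per cell cannot be told apart.

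Markers of endothelial and mesenchymal cell types were set beside Ednra, and which of these cells carry it was not tested. The mean log2 CPM of 10 endothelial markers was 7.43 to 7.60 in the 4 controls and 6.89 to 7.71 in the 4 TO lungs, with TO 1 and TO 3 lowest. For 7 fibroblast markers it was 8.39 to 8.88 in control and 8.69 to 9.17 in TO lungs, for 8 smooth muscle markers 4.46 to 5.33 and 4.44 to 5.61, and for 7 pericyte markers 5.92 to 6.67 and 6.06 to 6.65, so that the groups overlapped for each list. These means use the count without strand. For the smooth muscle marker Tagln it gave a log2 fold change with an SE of 0.81 in the 6 libraries, against 0.14 with the single-strand columns summed. In TO 1, 1 smooth muscle marker was at 0. On the log2 scale, the ratio of Ednra to the fibroblast markers differed (TO minus control) by -0.32 in the 6 libraries and -0.48 in all 8, that to smooth muscle markers by -0.36 and -0.21, and that to pericyte markers by -0.40 and -0.35. The TO and control lungs of the 6 libraries overlapped in each of these ratios. Since Ednra was chosen for its lower level in these TO lungs, lower ratios are partly built in, and nothing is read from them. Leukocyte markers were at a mean log2 CPM of 1.75 to 2.09 in control lungs and 4.27, 1.74, 3.03 and 2.34 in TO 1 to 4, so the TO lungs with the most leukocyte signal, TO 1 and TO 3, were those with the least Ednra. The defining T cell marker Cd3e was at 0 in 5 of the libraries. It passed the count filter with all 8 libraries, at a log2 fold change of 6.20, but not without TO 1, so it weighs on the mean of that shallow library. Summed, the 6 leukocyte markers were at 58.3 to 78.1 CPM in control lungs and at 176, 70.7, 108 and 98.8 CPM in TO 1 to 4. Whether these cells have a part in the level of Ednra was not tested.

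Ednrb encodes the ETB receptor. It stood at 250, 215, 315 and 214 CPM in controls 1 to 4 and at 158, 209, 113 and 228 CPM in TO 1 to 4. TO 4 lay inside the range of the controls, TO 2 just under it, and TO 1 and TO 3 well below. TO differed from control by a log2 value of -0.30 (SE 0.23, 95% interval -0.83 to 0.22, edgeR adjusted p = 0.912) in the 6 libraries and -0.48 in all 8. The ratio of Ednra to Ednrb was 0.790, 0.852, 0.660 and 0.861 in controls 1 to 4 and 0.826, 0.841, 1.36 and 0.737 in TO 1 to 4, so only TO 3 stood above 1. These and the other ratios given here are of CPM and are not corrected for transcript length. The difference in the log2 ratio was 0.18 in the 6 libraries and -0.083 without TO 3.

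Edn3 had an unadjusted p under 0.05 in edgeR and did not pass the adjusted threshold. Endothelin-3 binds the ETB receptor more readily than the ETA receptor and is best known for its role in neural crest cells. Its transcript was at 118, 110, 207 and 106 CPM in controls 1 to 4 and at 48.2, 78.0, 109 and 74.8 CPM in TO 1 to 4. Of the TO lungs only TO 3 reached the range of the controls, and control 3 was far above it. The mean was 111 ± 5.97 CPM in control and 87.2 ± 18.8 CPM in TO lungs (SD, n = 3), with a log2 fold change of -0.36 (SE 0.15, 95% interval -0.69 to -0.021). In edgeR the unadjusted p was 0.0396 and the adjusted p 0.907. None of the other 6 genes had an unadjusted p under 0.05 in this fit. Between the groups the log2 difference was -0.73 (SE 0.25) in all 8 libraries, where it was not called either, and -0.53 in the 6 libraries when TO 3 was left out.

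Edn1, the constrictor ligand made mainly by endothelium and by airway epithelium, had no stable direction. It was at 13.2, 15.8, 39.7 and 12.5 CPM in controls 1 to 4 and at 6.89, 11.0, 25.9 and 13.5 CPM in TO 1 to 4. In each group the lung numbered 3 was the highest, and the groups overlapped. The log2 difference between the groups was 0.27 (SE 0.30, 95% interval -0.41 to 0.95, edgeR adjusted p = 0.940) in the 6 libraries, -0.16 without TO 3 and -0.35 (SE 0.42) in all 8. Control 3 and TO 3 were also the libraries with the largest shares of read pairs on no gene, at 13.9% and 14.9% against 9.64% to 13.2% elsewhere, and the part of this in the level of Edn1 was not tested. Edn2, the remaining ligand, was near the limit of detection, with 7, 0, 8 and 3 read pairs in controls 1 to 4 and 0, 35, 10 and 24 in TO 1 to 4 (log2 fold change 2.31, SE 1.16, edgeR adjusted p = 0.907). Its unadjusted p was 0.0771 in edgeR and 0.0483 in DESeq2.

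Ece1 cuts the endothelin precursors to the active peptides. It was at 176, 147, 187 and 173 CPM in controls 1 to 4 and at 127, 186, 169 and 198 CPM in TO 1 to 4. The ranges overlapped, with the lowest level in TO 1, from 37 read pairs, and the highest in TO 4. TO differed from control by a log2 value of 0.16 (SE 0.12, 95% interval -0.11 to 0.43, edgeR adjusted p = 0.910) in the 6 libraries and 0.024 in all 8. Across the 7 libraries other than TO 1, its log2 CPM had a correlation of 0.90 with the mean of the smooth muscle markers, of 0.90 with that of the neuroendocrine markers and of 0.89 with that of the fibroblast markers, the largest among the 10 marker lists. Without control 3 they were 0.89, 0.99 and 0.88. These points share libraries, scaling and both groups, and the correlations are given as a description. The 5 neuroendocrine markers were near the limit of detection, with a sum of 10.2 to 16.0 CPM over these 7 libraries. In controls 2 and 3 and TO 3, 1 of them was at 0, so their mean rests in part on the prior count. The smooth muscle mean includes Tagln, with the limit given above.

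**Figure D2:**
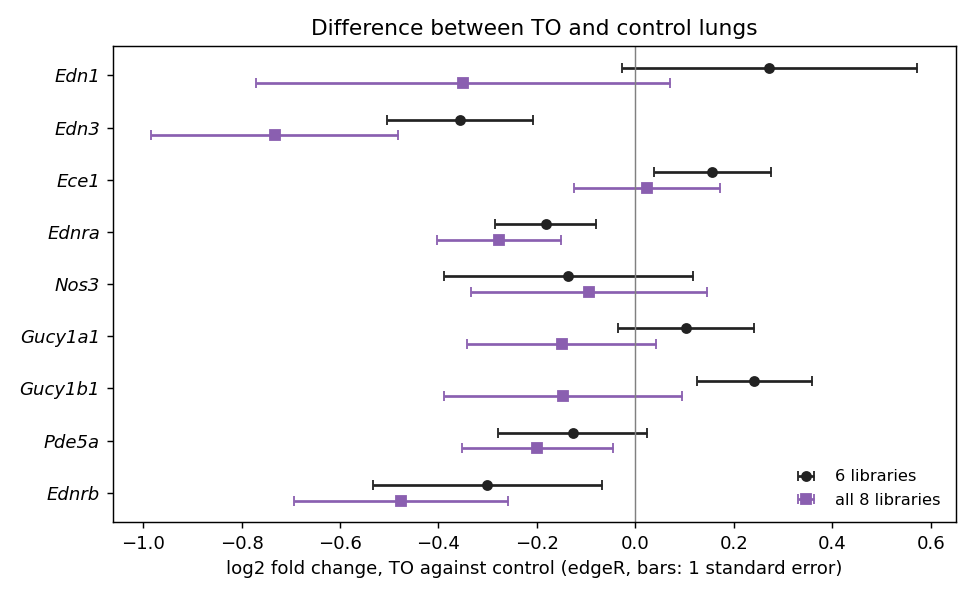
Log2 fold change of TO against control for the 8 genes and Ednrb, with 1 standard error, from the fits of 6 libraries (black circles) and of all 8 (purple squares). Edn1, Gucy1a1 and Gucy1b1 lie above 0 in the 6 libraries and below 0 in all 8, whereas Edn3, Ednra and Ednrb lie below 0 in both.

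Gucy1a1 and Gucy1b1 encode the subunits of soluble guanylate cyclase, the receptor of NO. Gucy1a1 was at 302, 282, 400 and 262 CPM in controls 1 to 4 and at 196, 365, 288 and 257 CPM in TO 1 to 4. Gucy1b1 was at 146, 136, 251 and 140 CPM in controls 1 to 4 and at 86.1, 189, 167 and 144 CPM in TO 1 to 4. For both subunits control 3 was the highest and TO 1 the lowest of the 8 lungs. In the 6 libraries the log2 fold change was 0.10 for Gucy1a1 (SE 0.14, 95% interval -0.21 to 0.42, edgeR adjusted p = 0.957). That of Gucy1b1 was 0.24 (SE 0.12, 95% interval -0.023 to 0.51, edgeR adjusted p = 0.907), where TO 4 alone reached into the range of the controls. In all 8 libraries both were -0.15, and with TO 1 alone left out they were -0.039 and -0.013. The ratio of Gucy1a1 to Gucy1b1 was 2.07, 2.07, 1.60 and 1.87 in controls 1 to 4 and 2.28, 1.94, 1.72 and 1.79 in TO 1 to 4, and its log2 value differed between the groups by -0.14 in the 6 libraries and 0.020 in all 8.

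The subunits varied together between lungs, whereas the relation of the ligands rested on control 3. Over the 7 libraries other than TO 1 the correlation of log2 CPM was 0.91 between Gucy1a1 and Gucy1b1, 0.89 between Ednra and Ednrb, 0.82 between Edn1 and Edn3 and 0.73 between Ednra and Pde5a. Each rests on 7 points that share their libraries, scaling and groups, and control 3 was at the upper end of each of the first 3 pairs. Without control 3 the correlation was 0.81 for Gucy1a1 and Gucy1b1, 0.84 for Ednra and Ednrb, 0.82 for Ednra and Pde5a and 0.42 for Edn1 and Edn3. The ratio of Edn1 to Edn3 was 0.112, 0.144, 0.192 and 0.118 in controls 1 to 4 and 0.143, 0.141, 0.238 and 0.181 in TO 1 to 4. Its log2 value differed by 0.56 in the 6 libraries, where control 2 overlapped TO 2, and by 0.31 in all 8. As the Edn3 and Gucy1b1 windows printed above held none of the motifs searched, no match could be shared within either pair. Nothing on the regulation of the pairs is read from the windows.

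**Figure D3:**
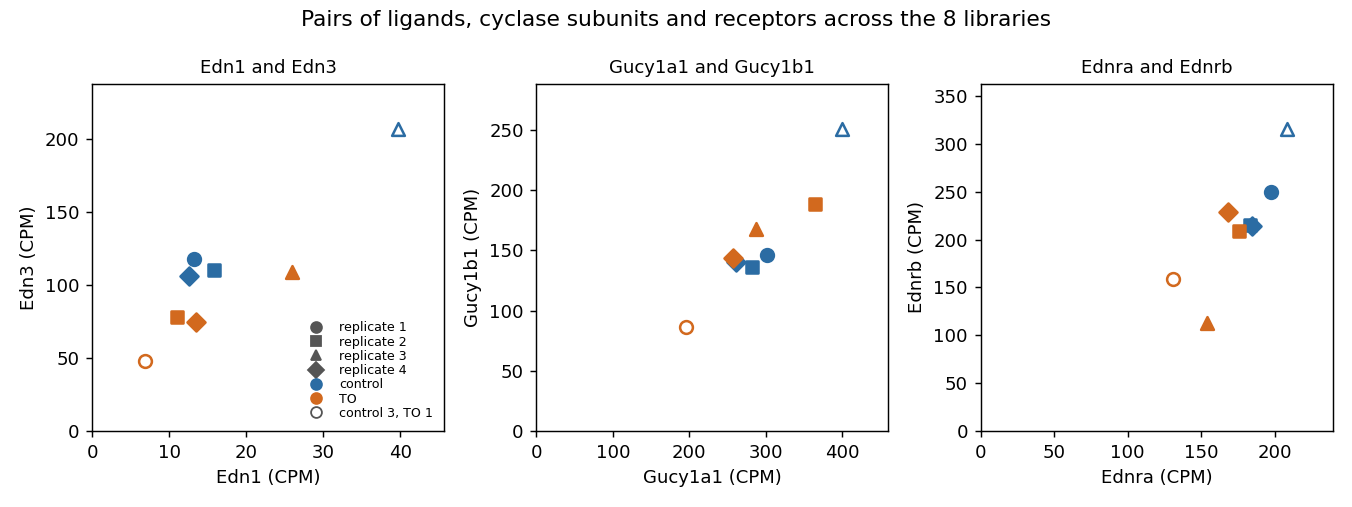
CPM of Edn3 against Edn1, Gucy1b1 against Gucy1a1 and Ednrb against Ednra, each point being 1 library, with controls in blue, TO lungs in orange and control 3 and TO 1 as open symbols. Control 3 is at the upper right of each panel, and TO 3 lies below the other libraries for Ednrb at 113 CPM.

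Pde5a, which degrades cGMP, was at 339, 272, 295 and 272 CPM in controls 1 to 4 and at 207, 317, 225 and 267 CPM in TO 1 to 4. TO 2 was inside the range of the controls, and the other TO lungs were below it. Between the groups the log2 difference was -0.13 (SE 0.15, 95% interval -0.47 to 0.21, edgeR adjusted p = 0.950) in the 6 libraries and -0.20 in all 8. Its log2 CPM had a correlation of 0.81 with the mean of the endothelial markers and of -0.79 with that of the leukocyte markers over the 7 libraries, and of 0.81 and -0.80 without control 3, again as a description of points that share both groups.

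Nos3 encodes the endothelial NO synthase and was at 11.0, 15.8, 11.6 and 15.7 CPM in controls 1 to 4 and at 10.3, 12.4, 9.45 and 16.7 CPM in TO 1 to 4. The groups overlapped, with both the lowest and the highest level in a TO lung. The log2 difference between the groups was -0.14 (SE 0.25, 95% interval -0.71 to 0.44, edgeR adjusted p = 0.971) in the 6 libraries and -0.095 in all 8. Relative to the endothelial markers, the log2 level of Nos3 differed by -0.035 in the 6 libraries and by 0.11 in all 8. Its log2 CPM had a correlation of 0.21 with their mean over the 7 libraries other than TO 1 and of 0.29 without control 3.

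The count of Nos3 depended on how read pairs were assigned. Of its 4132 exon bases, 1040 (25.2%) are also exon bases of the antisense gene Gm15587 and 294 (7.12%) of Atg9b, both on the opposite strand, and a read pair over shared bases goes to neither gene when strand is disregarded. The count without strand was 25.8% to 37.4% of the sum of both single-strand columns in the 7 deeper libraries. The share of read pairs left out was thus larger than the share of exon bases in common, and the reason was not tested. It was 252 against 947 read pairs in control 1. With the summed columns, a choice made after these counts were seen, Nos3 was at 38.1, 38.7, 31.6 and 43.7 CPM in controls 1 to 4 and at 25.2, 38.8, 33.6 and 43.9 CPM in TO 1 to 4, and at 9.28 ± 1.12 CPM per kb (SD, n = 7). Read pairs of Gm15587 and Atg9b may be among them, since the libraries did not keep strand. The mean was then 40.2 ± 3.08 CPM in control and 38.7 ± 5.14 CPM in TO lungs (SD, n = 3), with a log2 fold change of -0.051 (SE 0.14, 95% interval -0.36 to 0.26, edgeR adjusted p = 0.976). The interval was narrower than with the count without strand. For the other genes the count without strand was 76.4% to 93.3% of the sum for Edn1, 90.1% to 91.7% for Ednra, 94.4% to 96.5% for Pde5a and 100% for Edn3, Ece1, Gucy1a1 and Gucy1b1.

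**Figure D4:**
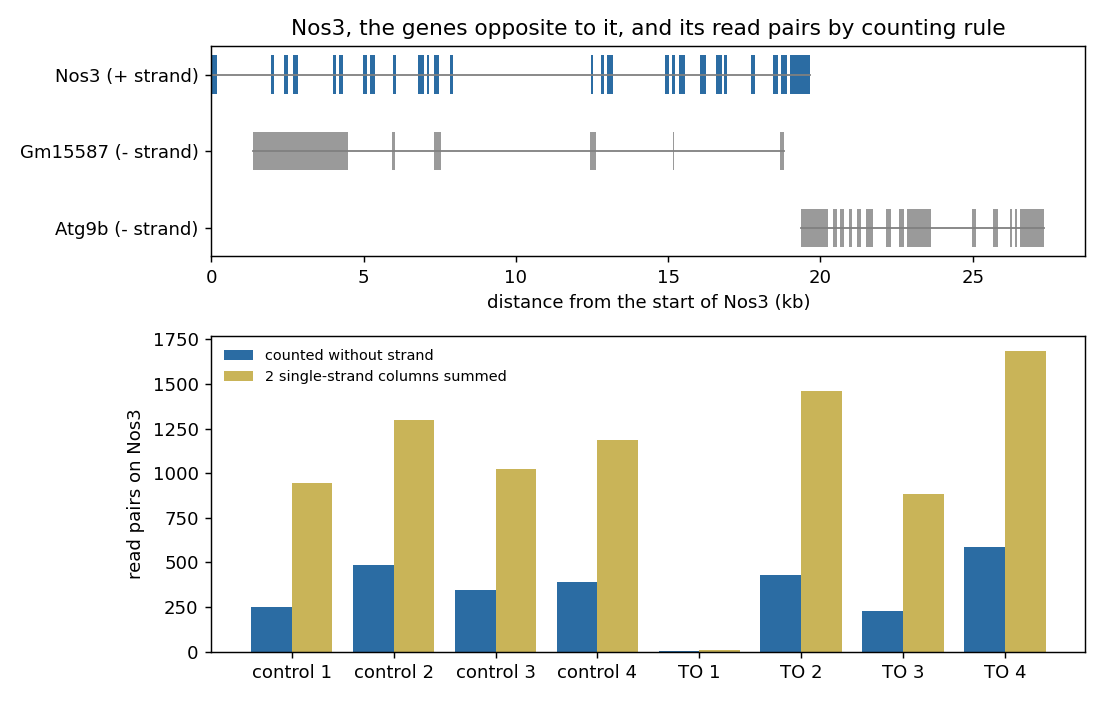
Top, exons of Nos3 and of the genes Gm15587 and Atg9b on the opposite strand, by distance from the start of Nos3 in kb. Bottom, read pairs counted on Nos3 in each library without strand (blue) and as the sum of both single-strand columns (yellow), for example 252 and 947 in control 1, with TO 1 close to 0 because of its depth.

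Other genes of the endothelin, NO, angiotensin and prostanoid pathways were compared in the same fit. Of 47 genes 46 were tested, and 0 were called. In the 6 libraries 32 were above 0 and 14 below on the log2 scale, with a median of 0.16 against -0.0045 for all genes, but in all 8 libraries 22 were above and 24 below, with a median of -0.014. At an unadjusted p under 0.05 in edgeR, 4 genes were higher and 2 lower in the 6 libraries, where the background was 3.07% of genes higher and 2.07% lower. In all 8 there were 3 and 0, where the background was 1.43% of genes higher and 0.918% lower.

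Among the other genes of endothelin signaling, 7 of 10 tested were above 0 in the 6 libraries and 2 of 10 in all 8. The G protein subunit Gnaq and the phospholipase Plcb3, which carry the receptor signal, had log2 fold changes of 0.12 (SE 0.11) and -0.017 (SE 0.10). The peptidases Mme, which degrades endothelins, and Kel had 0.32 (SE 0.18) and 0.36 (SE 0.81). Of 25 other NO and cGMP genes 16 were above 0 in the 6 libraries, with a median of 0.15, and 13 in all 8, with a median of 0.0089. Cav1, which encodes the caveolin that binds the endothelial NO synthase and was the most abundant of them, had a log2 fold change of 0.019 (SE 0.13) in the 6 libraries and -0.21 in all 8. Ddah2, of the dimethylarginine dimethylaminohydrolase family, had -0.40 (SE 0.20, edgeR adjusted p = 0.907). Nos1, the neuronal NO synthase, had 1.74 (SE 0.76) but did not exceed 3.32 CPM in any lung. Nppa, the atrial natriuretic peptide and also one of the cardiomyocyte markers, had 1.78 (SE 1.24), with 0.44 and 1.59 CPM in controls 1 and 2 and 41.3 to 110 CPM in the other 6 lungs. Without control 4, edgeR called Nppa (log2 fold change 6.07) and Nppb (7.37), each at an adjusted p of 0.0257.

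Of 11 angiotensin and prostanoid genes 9 were above 0 in the 6 libraries, with a median of 0.20, and 7 in all 8, with a median of 0.057. Ptgs1, the constitutive cyclooxygenase, was at 91.9, 112, 69.2 and 92.5 CPM in controls 1 to 4 and at 65.4, 84.5, 57.0 and 75.0 CPM in TO 1 to 4, and control 3 lay within the TO range (log2 fold change -0.45, SE 0.16, edgeR adjusted p = 0.907). Ace, the angiotensin converting enzyme, had a log2 fold change of 0.35 (SE 0.20) in the 6 libraries and -0.19 in all 8. Agt, the angiotensin precursor, had 0.16 (SE 0.20) and -0.23. Ptgs2, the inducible cyclooxygenase, had 1.42 (SE 0.73) at no more than 3.53 CPM.

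**Figure D5:**
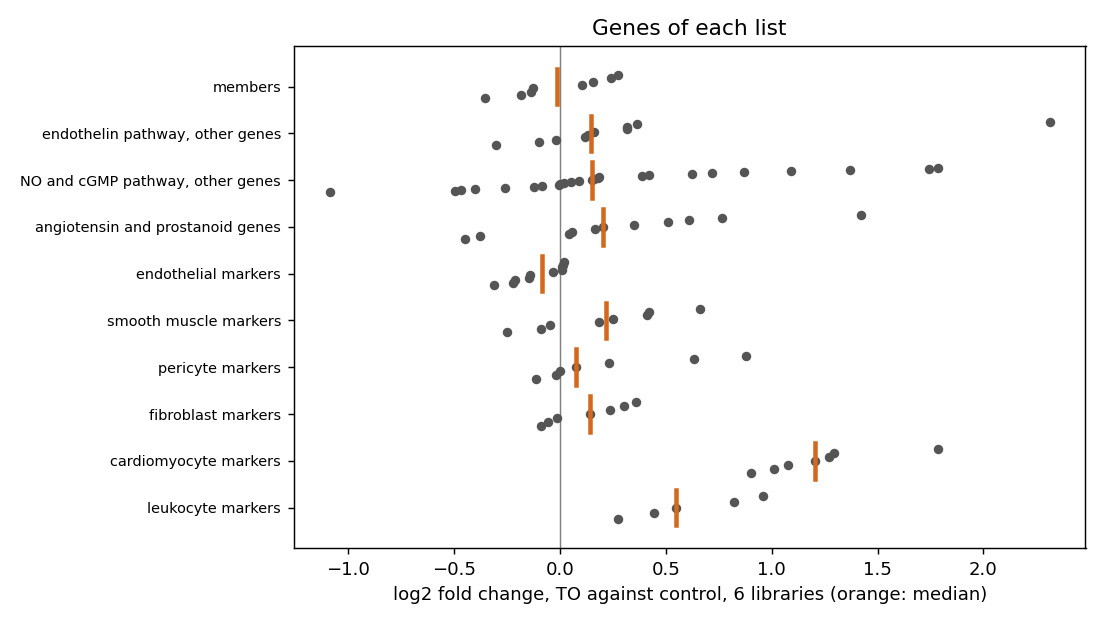
Log2 fold change of TO against control in the 6 libraries for each tested gene (grey points) of the 8 genes described here (row "members"), 3 lists of other pathway genes and 6 lists of cell type markers, with the median of each list in orange. The medians lie at -0.012 for the 8 genes, between 0.15 and 0.20 for the 3 pathway lists, at -0.087 for endothelial and at 1.21 for cardiomyocyte markers.

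Genes with the levels most like those of Ednra, Edn1 and Nos3 were found by the correlation of log2 CPM over the 7 libraries other than TO 1, among 10765 genes. For Ednra they were Ezr (0.99), Robo1, Anxa5, Rasgrp3 and Glrx3 (each 0.96 to 0.97). As Ednra was chosen for its lower level in TO lungs, genes with a like pattern tend to share it over these 7 libraries. In TO 1, which was left out, Robo1 (82.6 CPM) and Rasgrp3 (58.5 CPM) were below all other lungs. Ezr (272 CPM) and Anxa5 (265 CPM) lay within the control range there, and Glrx3 (107 CPM) above it. For Edn1 they were Ankrd37, Crebbp, Plekhm3, Six4 and Tmem131l (each 0.98). Ankrd37 was at 14.1, 15.3, 37.9 and 13.6 CPM in controls 1 to 4 and at 3.44, 13.3, 22.6 and 15.0 CPM in TO 1 to 4, highest in control 3 and TO 3 as Edn1 was. For Nos3 they were Ndufc2 (0.97), Samm50 (0.97), Rce1 (0.95), Rnf5 (0.95) and Dtd2 (0.94). With 7 libraries and this many genes, high values are found for any gene, and they are given as a description. Without control 3 the same correlations were 0.95 to 0.98 for Ednra, 0.96 to 0.98 for Edn1 and 0.94 to 0.98 for Nos3.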

How the data were processed

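Bulk RNA from whole lungs, 4 per group, went into NexteraXT libraries and paired-end sequencing of 150 bp. Alignment was to GRCm38 with STAR, and the authors deposited its gene table, whose values are unnormalized counts of read pairs, 1 column without strand and 1 for each strand. The submitters' processing notes also name DESeq2 and mm10. The version of STAR and the annotation are not given in the sources used here. The first strand took 49.9% to 50.1% of read pairs, so the column without strand was used, in which read pairs over exons of opposite genes are not assigned. The 4 rows that name no gene held 23.1% to 27.1% of read pairs and were left out. No molecular identifiers were used, and PCR copies may be among the counts.

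Gene IDs were matched to GENCODE M21 (55144 of 55385). CPM used TMM factors of all 8 libraries. The filter asked for 5 reads or more in at least 3 libraries. TO was set against control with edgeR 4.0.16 (TMM factors, quasi-likelihood F-test) in R 4.3.3. P-values were adjusted by Benjamini and Hochberg over every gene that passed the filter, and a gene was called at an adjusted p under 0.1. Standard errors and 95% intervals come from this fit. Log2 CPM used a prior count of 2. Figures were drawn with matplotlib 3.10.9 in Python 3.11.15. The fit was tested on simulated data. Alternatives were all 8 libraries, 7 without TO 1, each library left out in turn, a block by replicate number, DESeq2 1.42.0, limma-voom (limma 3.58.1), RLE factors, library size alone, other filters, the single-strand columns and, added after seeing the data, their sum, levels, spread and correlations without control 3 and TO 1, and the block for the marker lists.

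The 8 genes and the lists were chosen with earlier results of these data known. Of each list of other pathway genes, the text names genes called in the fit of 6 or of 8 libraries (there were none), the 3 most abundant per kilobase of exon, and the 2 with the largest absolute log2 fold change among those at 1 CPM or more. Edn2 and Ednrb were added as the remaining ligand and receptor. For Ednra, Edn1 and Nos3 the 5 genes with the highest correlation of log2 CPM are named, over the 7 libraries other than TO 1 and genes of at least 10 CPM. Nppb, Agtr2, Pde3a, Pde9a, Sftpc, Cdh5 and Cd3e were named after their values were seen. Of the genes this rule takes in, 1 stays in the counts and is not reported here by itself.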

Additional observations from a re-analysis of the deposited data

Results flagged for a closer look

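Control 3 stood apart from the other controls for 3 of the 8 genes, with a gap to the next control that was large for the range of the group. It was at 39.7 CPM for Edn1 against 12.5 to 15.8 CPM in the other controls, at 207 CPM for Edn3 against 106 to 118 CPM, and at 251 CPM for Gucy1b1 against 136 to 146 CPM. The test, Dixon's at the 95% level, was made on 16 groups of 4 lungs, of which chance flags about 1 in 20. The 3 flags come from the same lung and are not independent. The share of all genes for which control 3 would be flagged was not counted, so nothing particular to these genes is read from them. Control 3 is not among the 6 libraries. Without it the coefficient of variation was 35.4% in place of 55.7% for Edn1, 18.3% in place of 38.2% for Edn3 and 13.2% in place of 24.5% for Gucy1b1, and the correlation of Edn1 with Edn3 was 0.42 in place of 0.82.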

How the results depend on the processing

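None of the 7 genes other than Ednra was called under any alternative. The signs of Edn3 and Ece1 held under every alternative, and without each of the 6 libraries in turn their log2 fold changes ranged from -0.53 to -0.25 and from 0.081 to 0.23. For Ednra, chosen for its lower level and not tested, the range was -0.22 to -0.12. Those ranges were -0.16 (without TO 3) to 0.51 for Edn1, -0.37 to 0.054 (without TO 3) for Nos3, -0.048 (without TO 2) to 0.21 for Gucy1a1, -0.064 to 0.043 for Plcb3, -0.12 to 1.56 for Kel, -0.12 to 0.13 for Cav1 and -0.054 to 0.34 for Agt. Other signs turned as libraries were added. In all 8 libraries the log2 fold change was -0.35 for Edn1, -0.15 for Gucy1a1, -0.15 for Gucy1b1, -0.045 for Gnaq, -0.53 for Kel, -0.044 for Mme, -0.21 for Cav1, -0.19 for Ace and -0.23 for Agt. In the 7 libraries without TO 1 it was -0.28 for Edn1, -0.039 for Gucy1a1, -0.013 for Gucy1b1, -0.54 for Kel, -0.10 for Cav1, -0.015 for Ace and -0.15 for Agt. With both strand columns summed in all 8 it was -0.32 for Edn1, -0.15 for Gucy1a1, -0.15 for Gucy1b1, -0.044 for Gnaq, -0.53 for Kel, -0.043 for Mme, -0.21 for Cav1, -0.21 for Ace and -0.23 for Agt. With the first strand alone Kel was at -0.25, and with the second alone Plcb3 was at 0.040. The cause of these turns was not tested. The log2 ratio of Gucy1a1 to Gucy1b1 differed by 0.020 in all 8 libraries. Of all genes, edgeR called between 0 and 144 when a library was left out (144 without TO 4, 52 without control 4), DESeq2 called 44, and edgeR with no filter called 40. Of the other pathway genes between 0 and 2 were called, the 2 being Nppa and Nppb without control 4.

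Lungs of one replicate number were not shown to be pairs. Their deviations from the group means were correlated in all 8 libraries. The value was 0.058 for number 1, 0.13 for number 2, 0.16 for number 3 and 0.073 for number 4. Between lungs of unlike number it ran from -0.17 to 0.093. Controls 2, 3 and 4 correlated best with the TO lung of their own number, and control 1 with TO 4. In the 6 libraries the highest value was 0.13, between control 1 and TO 4. Among the 6 libraries only numbers 2 and 4 have a lung in each group. A replicate block there rests on those lungs, and control 1 and TO 3 do not enter the difference. With a replicate block edgeR called 219 genes in the 6 libraries and 3 in all 8. Of the other pathway genes it called 1 in the 6 libraries, Agtr2. In the 6 libraries it also called 5 of the cardiomyocyte, 2 of the smooth muscle and 2 of the fibroblast markers, and in all 8 it called 0 markers of these lists. From numbers 2 and 4 alone, the block put Edn1 at -0.21, Pde5a at 0.10 and Ednrb at 0.029 in the 6 libraries. In all 8 it put Edn1 at -0.38, Gucy1a1 at -0.16, Gucy1b1 at -0.15, Gnaq at -0.059 and Kel at -0.39. Mme was there at -0.045, Cav1 at -0.22, Ace at -0.19 and Agt at -0.26. With the block Edn3 was at -0.50 (SE 0.14, edgeR adjusted p = 0.145) in the 6 libraries. In all 8 Edn3 was at -0.73 (SE 0.15, edgeR adjusted p = 0.349), and it was called in neither.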

Other observations

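Among the other pathway genes with an unadjusted p under 0.05 were enzymes that degrade cyclic nucleotides and an angiotensin receptor of fetal mesenchyme. They were picked out after their values were seen, and 0 of them were called by edgeR in the 6 libraries or in all 8. Pde9a, which degrades cGMP, was at 21.8, 20.8, 12.6 and 17.0 CPM in controls 1 to 4 and at 13.8, 15.5, 13.9 and 13.8 CPM in TO 1 to 4. Controls 1, 2 and 4 lay above every TO lung and control 3 below them (log2 fold change -0.47, SE 0.16, in the 6 libraries). Pde3a, which degrades cAMP and is inhibited by cGMP, was at 38.4, 30.8, 89.1 and 53.2 CPM in controls 1 to 4 and at 34.4, 47.8, 85.2 and 68.5 CPM in TO 1 to 4, with control 3 the highest lung (log2 fold change 0.72, SE 0.25, in the 6 libraries). Agtr2, the type 2 angiotensin receptor, was at 36.5, 22.1, 25.6 and 29.1 CPM in controls 1 to 4 and at 68.9, 32.6, 46.3 and 54.5 CPM in TO 1 to 4. Of the TO lungs only TO 2 was below the highest control (log2 fold change 0.61, SE 0.23, in the 6 libraries).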
